A study of Mus musculus with 4 samples.

Results

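The mitochondrial genome of the mouse encodes 37 genes, and all 37 were followed here from the input of an RNA immunoprecipitation (RIP) into the pulldown. They were taken as every gene of the count table whose symbol starts with mt-, which picked 37 of 52550 genes. They are 13 mRNA genes, 2 ribosomal RNA (rRNA) genes and 22 transfer RNA (tRNA) genes, and each lies on chromosome M of GRCm38. The RIP used an antibody against YTHDF2, a reader protein of N6-methyladenosine (m6A), to find the RNA held by YTHDF2 in the developing retina. Retinas of wild type C57BL/6 mice at postnatal day 0 were dissociated and lysed, and RNA was sequenced before the pulldown (Input, 2 libraries) and after it (RIP, 2 libraries). Both groups share the tissue, the age and the unmodified genotype, and the pulldown is the design factor by which they differ. Their libraries also differed in depth and in the share of ribosomal counts. The study describes its samples as biological replicates. Its methods also mention a control IgG pulldown, which was not analysed here, so that binding to the beads or to any antibody was not tested.

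Mitochondrial DNA is transcribed inside the organelle from both of its strands into long precursor RNAs, and tRNA sequences punctuate these precursors and mark where mRNA and rRNA are cut out. The mRNAs encode subunits of the respiratory chain and of ATP synthase, and are translated by mitochondrial ribosomes that the 2 mitochondrial rRNAs help to build. YTHDF2 is known as a mainly cytoplasmic protein that binds m6A in mRNA made in the nucleus and directs that mRNA to decay. Neurons and photoreceptors of the retina are known for a high demand for mitochondrial ATP.

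The libraries held between 19530226 and 39499994 counts on genes. Of these, 2 overlapping genes on chromosome 17 with ribosomal sequence, AY036118 and CT010467.1, took 55.5% and 55.0% of the input counts and 85.3% and 87.8% of the RIP counts. All 17 retinal markers looked for were detected in every library, with a summed level between 356 and 517 CPM (counts scaled to a common library size). The summed CPM of lens markers was at most 0.670, that of pigment epithelium markers at most 0.75, that of blood markers at most 1.08 and that of microglial markers at most 4.2. Vessel markers summed to 35.1 and 33.7 CPM before the pulldown and 69.1 and 71.0 CPM after it, and their part in the results was not tested. Since this was bulk RNA, the cell types that a transcript came from cannot be told apart.

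RNA of the mitochondrial genome made up a large part of the input and almost none of the pulldown. The 37 genes took 18.6% of the counts in Input replicate 1 and 19.4% in Input replicate 2, or 7348268 and 7014347 counts. In RIP replicates 1 and 2 they took 0.578% and 0.522%, or 112829 and 129997 counts. The groups did not overlap. Their SD was 0.533 and 0.0394 percentage points (n = 2 each), and on the log2 scale their means stood 34.5-fold apart. The log2 ratio of RIP to Input was -5.01 in replicate 1 and -5.21 in replicate 2. Because there were 2 libraries in each group, the smallest two-sided p of an exact permutation test on this share would be 0.33, and none was run. The share also moves with the other abundant RNAs. Among counts on nuclear protein-coding genes plus mitochondrial genes, the mitochondrial part was 67.4% and 68.4% before the pulldown and 4.91% and 5.92% after it. With AY036118 and CT010467.1 left out, it was 41.8% and 43.0% against 3.94% and 4.29%.

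Gene by gene, 23 of the 37 genes were called lower in the RIP and none higher. Counts were scaled by library size and TMM factor and compared by edgeR's quasi-likelihood test, and a gene was called when its Benjamini-Hochberg adjusted p over 13632 tested genes was below 0.05. A fold change therefore sets a gene against the bulk of tested transcripts and does not measure how much of it was bound. Among all tested genes 9.78% were called lower and 3.48% higher, and the median log2 fold change was -0.05. The mitochondrial genes called lower were 13 of 13 mRNA genes, 2 of 2 rRNA genes and 8 of the 17 tRNA genes that passed the filter on low counts. Another 9 tRNA genes were tested and not called, and 5 had too few counts to be tested. In 26 of the 37 genes both RIP libraries lay below both inputs in CPM, as they did in 31.3% of tested genes. At a log2 fold change of -1 or lower and an unadjusted p below 0.05, 23 mitochondrial genes were again lower (17.2% of all tested genes), and none passed the opposite limit of 1 or higher (9.43%). When RIP replicate 1 or RIP replicate 2 was left out, so that 1 pulldown stood against both inputs, fewer mitochondrial genes were called lower. The share of all tested genes then called was not counted. The median log2 fold change of the mRNA genes was -5.33 without RIP replicate 1 and -5.32 without RIP replicate 2, against -5.37 with all libraries.

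The rRNAs of the small and the large mitochondrial ribosomal subunit fell by nearly the same factor. mt-Rnr1 (ENSMUSG00000064337, chrM:70-1024, plus strand), the 12S rRNA, had 4462770 and 3093922 input counts and 55757 and 63924 RIP counts. That is 112018 ± 30897 CPM before the pulldown (SD, n = 2) and 2434 ± 316 CPM after it, a log2 difference of -5.52 (standard error 0.585, adjusted p = 0.00136, edgeR's quasi-likelihood test). mt-Rnr2 (ENSMUSG00000064339, chrM:1094-2675, plus strand), the 16S rRNA, had 2354247 and 2973540 input counts and 37069 and 46721 RIP counts. Its level went from 78640 ± 11344 CPM to 1706 ± 335 CPM, a log2 difference of -5.53 (standard error 0.561, adjusted p = 0.00127). In both genes the lower input exceeded the higher RIP library by far more than replicates differed from each other.

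mt-Rnr1 had more counts than mt-Rnr2 in all 4 libraries, by a factor that differed most between the inputs. mt-Rnr1 had 1.90 counts for each count on mt-Rnr2 in Input replicate 1 and 1.04 in Input replicate 2, and the RIP libraries lay between them at 1.5 and 1.37. Within mitochondrial counts the rRNAs together took 92.8% and 86.5% of the inputs and 82.3% and 85.1% of the RIP libraries. The mRNAs took 7.19% and 13.4% against 17.6% and 14.7%, and the tRNAs 0.0401% and 0.0657% against 0.152% and 0.172%. The RIP shares of mRNA lay above both input shares, by less than the inputs differed from each other. The tRNA share was higher in both RIP libraries, on 172 and 223 counts in all.

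All 13 mRNAs fell, with log2 fold changes from -7.85 to -3.15 and a median of -5.37, against -0.05 over all tested genes. The ratios within replicates put this median at -4.56 in replicate 1 and -5.88 in replicate 2. Taken by complex, the median was -7.11 for the 2 subunits of ATP synthase, -5.47 for the single subunit of complex III, -4.90 for the 3 subunits of complex IV and -4.57 for the 7 subunits of complex I. Adjusted p ran from 0.000693 for mt-Atp6 to 0.00354 for mt-Nd6 (edgeR's quasi-likelihood test).

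**Figure D1:**
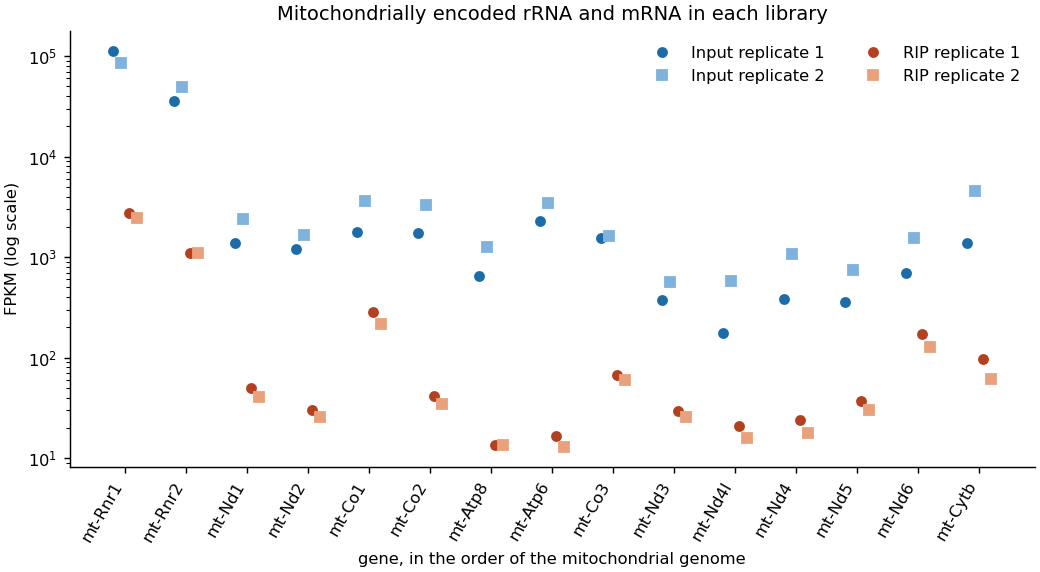
Level of each rRNA and mRNA of the mitochondrial genome in each of the 4 libraries, as the authors' FPKM values on a log axis, with genes in genome order. Blue symbols are the inputs and red symbols the RIP libraries, and in each of the 15 genes both RIP libraries lie below both inputs.

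The largest fall was that of the ATP synthase mRNAs, which form the proton channel side of the enzyme. mt-Atp6 (ENSMUSG00000064357, chrM:7927-8607, plus strand), which encodes subunit a, had 63963 and 88009 input counts and 240 and 239 RIP counts. That is 2242 ± 457 CPM against 9.72 ± 0.299 CPM (SD, n = 2), a 230.4-fold difference (log2 fold change -7.85, standard error 0.505). Summed with an identical nuclear copy (Gm10925), its log2 fold change was -6.99. On its own it ranked 20 of 13632 when all tested genes were ordered from the lowest log2 fold change. mt-Atp8 (ENSMUSG00000064356, chrM:7766-7969, plus strand), which encodes a short accessory subunit, had 5450 and 9618 input counts and 58 and 74 RIP counts, and its log2 fold change was -6.37 (standard error 0.496). Both genes are read from 1 transcript, and their reading frames share the 43 nt of chrM:7927-7969 on GRCm38, so that reads there belong to both. The shared stretch is shown with the first codon of mt-Atp6 in capitals, read from the GENCODE M21 transcript on the plus strand.
mt-Atp8/mt-Atp6 overlap: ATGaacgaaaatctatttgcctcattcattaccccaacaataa

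The mRNAs of complex IV, cytochrome c oxidase, spread more widely. mt-Co2 (ENSMUSG00000064354, chrM:7013-7696), which encodes the subunit that receives electrons from cytochrome c, had 48888 and 85282 input counts and 606 and 634 RIP counts. The difference was 78.4-fold (log2 fold change -6.29, standard error 0.507, adjusted p = 0.000876). mt-Co3 (ENSMUSG00000064358, chrM:8607-9390), a further core subunit, had 50420 and 48279 input counts and 1120 and 1280 RIP counts, and fell by 4.90 on the log2 scale (standard error 0.422). Its inputs were the closest of the 13 mRNAs, 1.07-fold apart in CPM. mt-Co1 (ENSMUSG00000064351, chrM:5328-6872), the catalytic subunit, had 115408 and 212110 input counts and 9378 and 8940 RIP counts. It fell by 3.70 (standard error 0.474, adjusted p = 0.00238), a 13-fold difference, and of the mRNAs it kept the most counts in the pulldown.

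The single mRNA of complex III, mt-Cytb (ENSMUSG00000064370, chrM:14145-15288), encodes cytochrome b. It had 65966 and 195959 counts in the inputs, the widest gap of the 13 mRNAs at 2.89-fold in CPM, and 2373 and 1904 counts in the RIP libraries. It fell by 5.47 on the log2 scale (standard error 0.630, adjusted p = 0.00160). Within replicates the ratio of RIP to Input was -4.39 in replicate 1 and -6.17 in replicate 2 on the log2 scale, with RIP libraries 1.19-fold apart. Without Input replicate 2 its log2 fold change was -4.51.

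Complex I, the NADH dehydrogenase, is served by 7 mitochondrial mRNAs that encode its membrane arm. mt-Nd1 (chrM:2751-3707) had 54908 and 87269 input counts and 1010 and 1040 RIP counts (log2 fold change -5.65, standard error 0.476). mt-Nd2 (chrM:3914-4951) had 52074 and 64523 against 662 and 729 (log2 fold change -5.93, standard error 0.450). mt-Nd4 (chrM:10167-11544) had 21808 and 56168 against 701 and 665 (log2 fold change -5.37, standard error 0.565). These 3 were the lowest of complex I, and their RIP libraries were within 1.16-fold of each other in CPM. mt-Nd4l (chrM:9877-10173), which shares 7 nt and its transcript with mt-Nd4, had 2176 and 6430 input counts and 133 and 129 RIP counts (log2 fold change -4.57, standard error 0.565). mt-Nd3 (chrM:9459-9806) had 5381 and 7402 against 220 and 242 (log2 fold change -4.33, standard error 0.397). mt-Nd5 (chrM:11742-13565) had 26858 and 51124 against 1422 and 1475 (log2 fold change -4.29, standard error 0.468). These 3 lay 19.5-fold to 23.7-fold lower in the RIP. Without Input replicate 2 the log2 fold change of mt-Nd4 was -4.56 and that of mt-Nd4l -3.62. mt-Nd6 (chrM:13552-14070) is the single mRNA on the minus strand, and it had 15002 and 30101 input counts and 1908 and 1778 RIP counts. Its fall of 8.88-fold (log2 fold change -3.15, standard error 0.447) was the smallest of the 13. When a RIP library was left out, mt-Nd4l and mt-Nd6 missed the threshold, with adjusted p of 0.0749 and 0.0804 without replicate 1 and 0.0667 and 0.0715 without replicate 2, at log2 fold changes of -4.52 or lower and -3.08 or lower. The other 11 mRNAs and both rRNAs kept their call without any 1 library.

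The make-up of the mitochondrial mRNA differed between input and pulldown, and this comparison needs no scaling against nuclear genes. mt-Co1 took 21.8% and 22.5% of the mitochondrial mRNA counts before the pulldown and 47.3% and 46.7% after it. mt-Nd6 went from 2.84% and 3.19% to 9.62% and 9.29%, and mt-Nd5 from 5.08% and 5.43% to 7.17% and 7.71%. In the other direction, mt-Atp6 went from 12.1% and 9.34% to 1.21% and 1.25%, mt-Co2 from 9.25% and 9.05% to 3.06% and 3.31%, and mt-Nd2 from 9.86% and 6.85% to 3.34% and 3.81%. In each of these 6 genes the groups did not overlap, and both RIP libraries stood closer to each other than to either input. The groups also did not overlap for mt-Nd3, which rose, and for mt-Nd1, mt-Atp8, mt-Nd4 and mt-Cytb, which fell. They overlapped for mt-Co3 and mt-Nd4l. Because the shares are parts of a whole, the rise of mt-Co1 lowers the others, so that the genes are not separate results. Reads on nuclear copies are left out of these shares, which were not computed with them. Gm10925, the copy of mt-Atp6, had 610 and 666 RIP counts where mt-Atp6 had 240 and 239. mt-Cytb, at 12.5% and 20.8% of the inputs and 12% and 9.95% of the RIP libraries, had RIP shares below both inputs by less than the inputs differed. With 2 libraries a group these shares have no test of their own, since the smallest exact permutation p is 0.33.

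Per unit of length, the order of the mRNAs changed as well. In the authors' FPKM values, which divide counts by gene length, the highest mean input levels were 2961 ± 2225 for mt-Cytb, 2843 ± 821 for mt-Atp6, 2716 ± 1298 for mt-Co1 and 2512 ± 1118 for mt-Co2 (SD, n = 2). These 4 neighbours differed by less than their spread. In the RIP libraries mt-Co1 was highest at 250 ± 51.1 FPKM, followed by mt-Nd6 at 150 ± 33.1 and mt-Cytb at 79.5 ± 25.6. mt-Atp6 and mt-Atp8 were at the lower end with 14.8 ± 2.55 and 13.4 ± 0.0560 FPKM. These values leave out reads on nuclear copies. Gm10925, the copy of mt-Atp6, had 610 and 666 RIP counts where mt-Atp6 had 240 and 239, so the low place of mt-Atp6 depends on how reads were assigned. The input order depends on it too. Gm10925 had 64974 and 89733 input counts and Gm28661, the copy of mt-Co2, 48953 and 85465, each close to its mitochondrial gene. No near-identical annotated copy of mt-Cytb was found. The input level of mt-Nd6 was 1117 ± 594 FPKM, so it stood in the middle of the order before the pulldown and next to the top after it.

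The inputs, more than the pulldowns, limited the precision of these values. Between the 2 inputs the level of an mRNA differed by 1.07-fold to 2.89-fold in CPM, and between the 2 RIP libraries by at most 1.34-fold. Input replicate 2 was the higher input in 12 of the 13 mRNAs, mt-Co3 being the exception. Counting error was small beside this, except for the tRNAs. For mt-Atp8, the mRNA with the fewest RIP counts, the pooled ratio of Input to RIP was 83.2 with an exact 95% interval of 70.1 to 99.5, which covers counting error only.

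**Figure D2:**
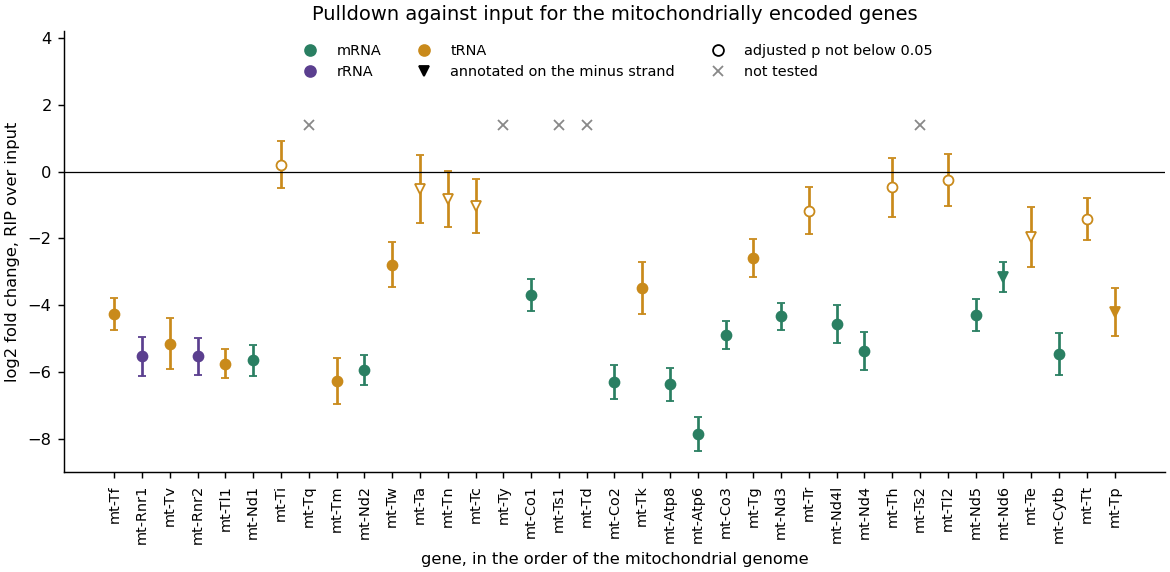
Log2 fold change of RIP over Input for each mitochondrial gene in genome order, with bars of 1 standard error from edgeR's quasi-likelihood fit. Filled symbols passed an adjusted p of 0.05, open symbols did not, triangles lie on the minus strand, and crosses mark the 5 tRNA genes without a test, whose height has no meaning. The filled symbols lie between -7.85 and -2.59, and the open ones, all of them tRNAs, between -1.95 and 0.20.

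The tRNAs split into a group that fell with the other mitochondrial RNAs and a group with few counts and no call. Those called lower had 32 to 3343 counts in an input and 1 to 38 in a RIP library, while the 9 not called had 4 to 64 and 5 to 22. The median log2 fold change of the 17 tested tRNAs was -1.95, with a range from -6.26 to 0.20. Without Input replicate 2 this median was -1.05, and over all 22 genes, with low counts kept, it was -1.04. The tRNA genes are 59 to 75 nt long, and counts per gene cannot tell a mature tRNA from the same sequence in an uncut precursor.

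Of the tRNAs with most input counts, mt-Tl1, which carries leucine, had 2247 and 3343 input counts and 38 and 37 RIP counts. It fell by 5.75 on the log2 scale (standard error 0.434, adjusted p = 0.000876), and of the 8 called tRNAs it alone kept its call whichever library was left out. mt-Tl1 starts at the base after the end of mt-Rnr2 and ends at the base before mt-Nd1. mt-Tf, the phenylalanine tRNA at the start of the genome's numbering, had 189 and 184 input counts and 6 and 8 RIP counts, and fell by 4.26 on the log2 scale (standard error 0.482, adjusted p = 0.00153). mt-Tv, the valine tRNA between the 2 rRNA genes, had 58 and 148 input counts and 2 counts in each RIP library (log2 fold change -5.15, adjusted p = 0.00425, and -4.35 without Input replicate 2). Pooled over replicates its ratio of Input to RIP was 37.5, with an exact 95% counting interval of 14.4 to 139. mt-Tm, the methionine tRNA just before mt-Nd2, had 100 and 132 input counts and 1 count in each RIP library. Its log2 fold change of -6.26, with a standard error of 0.681 (adjusted p = 0.00136), was the lowest of the tRNAs, and the pooled ratio of 84.5 had a counting interval of 23.1 to 702. mt-Tw, for tryptophan, had 50 and 124 counts against 6 and 12 (log2 fold change -2.79, adjusted p = 0.0294), and it missed the threshold without Input replicate 2 (log2 fold change -2.02, adjusted p = 0.0531). Without RIP replicate 1 or 2, the adjusted p was 0.0780 and 0.0592 for mt-Tf, 0.102 and 0.0829 for mt-Tv and 0.281 and 0.159 for mt-Tw, and it was 0.0556 for mt-Tm without RIP replicate 1.

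At the other end, 3 tested tRNAs showed the smallest differences. mt-Ti, for isoleucine, had 13 and 34 input counts and 17 and 22 RIP counts, and both RIP values lay between the inputs (log2 fold change 0.20, standard error 0.703, adjusted p = 0.880). mt-Tl2, the second leucine tRNA, had 14 and 17 counts against 8 and 11 (log2 fold change -0.24, adjusted p = 0.869). mt-Th, for histidine, had 8 and 48 against 10 and 19 (log2 fold change -0.47, adjusted p = 0.770). None of these 3 kept its direction when a library was left out: mt-Th was at 1.29 without Input replicate 2, mt-Ti at -0.32 without Input replicate 1 and mt-Tl2 at 0.07 without RIP replicate 1, and mt-Tl2 was at 0.05 with scaling by library size alone. The pooled ratio of Input to RIP for mt-Ti was 0.878, with an exact 95% counting interval of 0.562 to 1.38, while that of mt-Tm did not go below 23.1. Both genes lie on the plus strand, with mt-Tq on the opposite strand between them.

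The sequences of 4 tRNAs are shown because they stand at the ends of this range: the pair of neighbours mt-Tm (chrM:3845-3913) and mt-Ti (chrM:3706-3774), with the lowest and the highest log2 fold change, and the 2 tRNAs with most input counts, mt-Tl1 (chrM:2676-2750) and mt-Tf (chrM:1-68). All 4 are on the plus strand of GRCm38 and come from GENCODE M21 transcripts, and capitals mark the anticodon.
mt-Tm: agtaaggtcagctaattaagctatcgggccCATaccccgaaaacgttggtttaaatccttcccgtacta
mt-Ti: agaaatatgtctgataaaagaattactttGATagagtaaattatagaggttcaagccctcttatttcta
mt-Tl1: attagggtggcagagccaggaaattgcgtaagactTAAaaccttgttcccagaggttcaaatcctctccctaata
mt-Tf: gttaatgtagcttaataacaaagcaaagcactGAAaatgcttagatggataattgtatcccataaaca

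Too few counts for a test were left on 5 tRNA genes. mt-Ty had 5 and 19 input counts and 4 and 7 RIP counts, mt-Td 4 and 6 against 10 and 2, and mt-Ts2 1 and 1 against 1 and 14. mt-Ts1 had 2 and 1 against 0 and 1, and mt-Tq 1 and 2 against 1 and 0. No ratio is given where no library of a gene exceeds the floor of 3 counts, as here. The ratios of mt-Tm and mt-Tv passed this floor through their inputs alone, with 1 and 2 counts in each RIP library. No direction can be read from the 5 untested genes, and the 14 counts on mt-Ts2 came from RIP replicate 2 alone. Both serine tRNAs, mt-Ts1 and mt-Ts2, were among these 5, whereas both leucine tRNAs were tested.

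**Figure D3:**
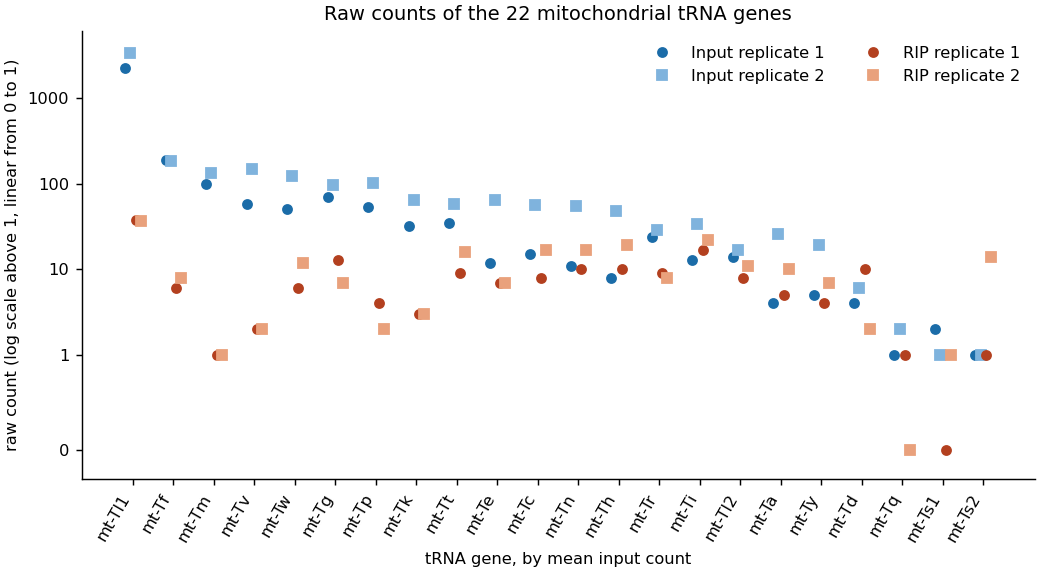
Raw counts of the 22 mitochondrial tRNA genes in the 4 libraries, ordered by mean input count, on an axis that is logarithmic above 1 and linear from 0 to 1. Blue symbols (inputs) and red symbols (RIP) stand well apart on the left, where inputs reach 3343 counts, and mix on the right, where the inputs hold at most 64 counts.

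By strand, 14 of the tRNA genes are annotated on the plus strand and 8 on the minus strand. Of the former, 12 were tested and 7 were called lower, with a median log2 fold change of -2.69 and a range from -6.26 to 0.20. Of the latter, 5 were tested and 1 was called lower, with a median of -1.02 and a range from -4.20 to -0.52. The one called lower was mt-Tp, the proline tRNA, named after its values were seen, with 54 and 103 input counts and 4 and 2 RIP counts (log2 fold change -4.20, standard error 0.710, adjusted p = 0.00744). It missed the threshold without RIP replicate 1 (adjusted p = 0.107) or without RIP replicate 2 (0.120). The minus-strand tRNAs reached at most 103 counts in an input, and the plus-strand tRNAs 3343. The library kit keeps strand information, but the strand setting of the counting is not given in the sources used here, so that reads of a gene and of the strand opposite to it cannot be told apart. This touches mt-Nd6 too, the end of which overlaps the end of mt-Nd5 by 14 nt.

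The first 60 nt of 3 mRNAs are shown for the ends of the mRNA range, the gene that fell most, mt-Atp6 (chrM:7927-7986, plus strand), and the 2 that fell least, mt-Co1 (chrM:5328-5387, plus strand) and mt-Nd6 (chrM:14011-14070, minus strand). The sequences come from GENCODE M21 transcripts on GRCm38, each written in the direction of its own RNA, and capitals mark the first codon.
mt-Atp6 start: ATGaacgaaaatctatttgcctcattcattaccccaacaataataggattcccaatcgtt
mt-Co1 start: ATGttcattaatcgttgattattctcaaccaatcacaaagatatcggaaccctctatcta
mt-Nd6 start: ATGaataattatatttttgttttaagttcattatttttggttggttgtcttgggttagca

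In sequence, the mitochondrial mRNAs were short and poor in G and C. Their lengths ran from 204 to 1824 nt with a median of 784 nt. The longest transcripts of 11940 tested nuclear protein-coding genes had a median of 3593 nt. The GC content of the mitochondrial mRNAs ran from 31.9% to 41.1% with a median of 37.1%, against a median of 49.8% over the same nuclear genes. The motif GGACT, a frequent form of the sequence around m6A in nuclear mRNA, was searched on the RNA strand alone and was present 8 times in 5 of the 13 mRNAs. mt-Co3 held 3 copies, mt-Nd2 held 2, and mt-Co2, mt-Nd4l and mt-Nd4 held 1 each. Among nuclear transcripts cut to the same length, the share with at least 1 copy was 56.3% for the length of mt-Co3, 51.1% for that of mt-Atp6, which had none, and 79.2% for that of mt-Co1, which had none. The 5 mRNAs with the motif had log2 fold changes from -6.29 to -4.57, inside the range of the 8 without it, -7.85 to -3.15. The 3 copies in mt-Co3 are shown with 12 nt on each side and the motif in capitals, since no other mitochondrial mRNA held more. They lie at chrM:8826-8854, chrM:9102-9130 and chrM:9207-9235 on the plus strand of GRCm38.
mt-Co3 GGACT 1: attgtacaaaaaGGACTacgatatggtat
mt-Co3 GGACT 2: accattatactaGGACTttacttcaccat
mt-Co3 GGACT 3: actggattccatGGACTccatgtaattat

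Annotated nuclear copies of mitochondrial sequence make 7 of the 13 mRNAs uncertain, since reads could be assigned to either place. The copies are unprocessed pseudogenes on the minus strand of chromosome 1 between 24611535 and 24616197, at least 99.7% identical to mt-Co1, mt-Co2, mt-Atp6, mt-Co3, mt-Nd3, mt-Nd4l or mt-Nd4 over the matched length. Gm28661, the copy of 681 of the 684 nt of mt-Co2, had 48953 and 85465 input counts and 610 and 638 RIP counts, at most 0.660% from the counts of mt-Co2 in each library. Gm28437, the copy of mt-Co3, had 50604 and 48444 input counts and 1111 and 1284 RIP counts. Both stood within 1 standard deviation of counting error of their mitochondrial gene in every library. Summing each copy with its mitochondrial gene, an alternative chosen after seeing the data, left 23 mitochondrial genes called lower.

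The copy of mt-Atp6 was close to its mitochondrial gene in the inputs and well above it in the pulldown. Gm10925 is identical to mt-Atp6 over 678 of 681 nt and had 64974 and 89733 counts in the inputs, 1.58% and 1.96% more than mt-Atp6, or 2.82 and 4.09 standard deviations of counting error. In the RIP libraries it had 610 and 666 counts where mt-Atp6 had 240 and 239, or 154% and 179% more, a gap of 12.7 and 14.2 standard deviations of counting error. Its log2 fold change was -6.46 (standard error 0.478), that of mt-Atp6 was -7.85, and that of their sum was -6.99 (standard error 0.505, adjusted p = 0.000987). Where the reads came from was not tested, and the sum, like mt-Atp6 alone, remained the lowest of the mRNAs. Only annotated transcripts were searched for copies, and other nuclear matches were not analysed here.

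Nuclear genes for the same respiratory complexes fell too, by less. Of 74 nuclear-encoded subunits of complexes I, III, IV and V, all tested, 56 (75.7%) were called lower and 1 higher, where 9.78% of all tested genes were called lower. Their median log2 fold change was -2.15, with a range from -5.45 to 1.56. By complex, 26 of 36 were called lower in complex I (median -2.14), 6 of 9 in complex III (median -2.0), 9 of 11 in complex IV (median -2.80) and 15 of 18 in complex V (median -1.97). In each complex the median of the mitochondrially encoded subunits was lower than that of the nuclear-encoded ones. Without RIP replicate 1 or 2 fewer of the 74 were called lower, in fits where the lone pulldown is assumed to vary like the inputs. The log2 fold change of Cox6b1 was then -3.61 and -3.62, against -3.72 with all libraries, and that of Usmg5 -5.39 and -5.10, against -5.33. The share of all tested genes called without a RIP library was not counted.

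Among the nuclear subunits with the highest input levels were 3 small ones of complex IV. Cox6b1 had 2888 and 1900 input counts and 136 and 130 RIP counts (log2 fold change -3.72, standard error 0.401, adjusted p = 0.00136). Cox6c fell by 3.20 (adjusted p = 0.00185), and Cox7c, with 2273 and 1649 input counts and 369 and 301 RIP counts, by 2.10 (adjusted p = 0.00829). Those that fell most were Ndufb4 of complex I, with 435 and 236 counts against 6 and 5 (log2 fold change -5.45, adjusted p = 0.00130), Usmg5 of complex V (log2 fold change -5.33, adjusted p = 0.000876) and Ndufb3 of complex I (log2 fold change -4.14, adjusted p = 0.000997). Of the 74 subunits, 15 had a log2 fold change below the -3.15 of mt-Nd6, with Ndufb4, Usmg5 and Ndufb3 among them. In the expression machinery described next no gene did, and its lowest value was -2.91. Uqcrfs1, the Rieske iron-sulfur protein of complex III, was the single subunit called higher, going from 115 and 104 counts to 224 and 247 (log2 fold change 1.56, standard error 0.363, adjusted p = 0.0263). Without RIP replicate 1 or 2 the adjusted p was 0.0662 and 0.0588 for Cox6b1, 0.0888 and 0.0667 for Cox6c, 0.170 and 0.184 for Cox7c and 0.227 and 0.267 for Uqcrfs1, and it was 0.0662 for Ndufb3 without replicate 1.

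Nuclear mRNAs for the proteins that transcribe, process and translate mitochondrial RNA did not fall as a group. Of 88 genes on this list, 84 were tested, 3 (3.57%) were called lower and 2 higher, and the median log2 fold change was -0.09, close to the -0.05 of all tested genes. The 3 lower ones were Slirp, an RNA-binding partner of LRPPRC (200 and 256 counts against 21 and 23, log2 fold change -2.91, adjusted p = 0.00379), Ssbp1, the mitochondrial single-stranded DNA-binding protein (log2 fold change -2.68, adjusted p = 0.00264), and Gatc, a subunit of the mitochondrial glutamyl-tRNA amidotransferase (log2 fold change -1.63, adjusted p = 0.0293). Lrpprc, which stabilises mitochondrial mRNA, rose from 25 and 76 counts to 198 and 194 (log2 fold change 2.42, standard error 0.532, adjusted p = 0.0215), so that the mRNAs of LRPPRC and of its partner SLIRP moved in opposite directions. Nsun4, a methyltransferase of mitochondrial rRNA, rose by 1.68 (adjusted p = 0.0467). Grsf1, of the mitochondrial RNA granule, had 398 and 497 input counts and 492 and 404 RIP counts (log2 fold change 0.46, adjusted p = 0.397), and Mtif2, a mitochondrial initiation factor, had a log2 fold change of -1.65 (adjusted p = 0.0865). More genes of this list were called lower without an Input library and fewer without a RIP library. The share of all tested genes called in those fits was not counted. Without RIP replicate 1 or 2 the adjusted p was 0.184 and 0.168 for Lrpprc and 0.205 and 0.361 for Nsun4. With no filter on low counts, Lrpprc, Nsun4 and Gatc missed the threshold (adjusted p = 0.0553, 0.0690 and 0.0618), and Nsun4 and Gatc also did so with limma on FPKM values (adjusted p from 0.0544 to 0.0915) and Gatc with scaling by library size alone (0.10). The log2 fold change of Lrpprc was 3.40 without Input replicate 2. Whether mRNA length differed between the respiratory subunits and this list was not tested.

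**Figure D4:**
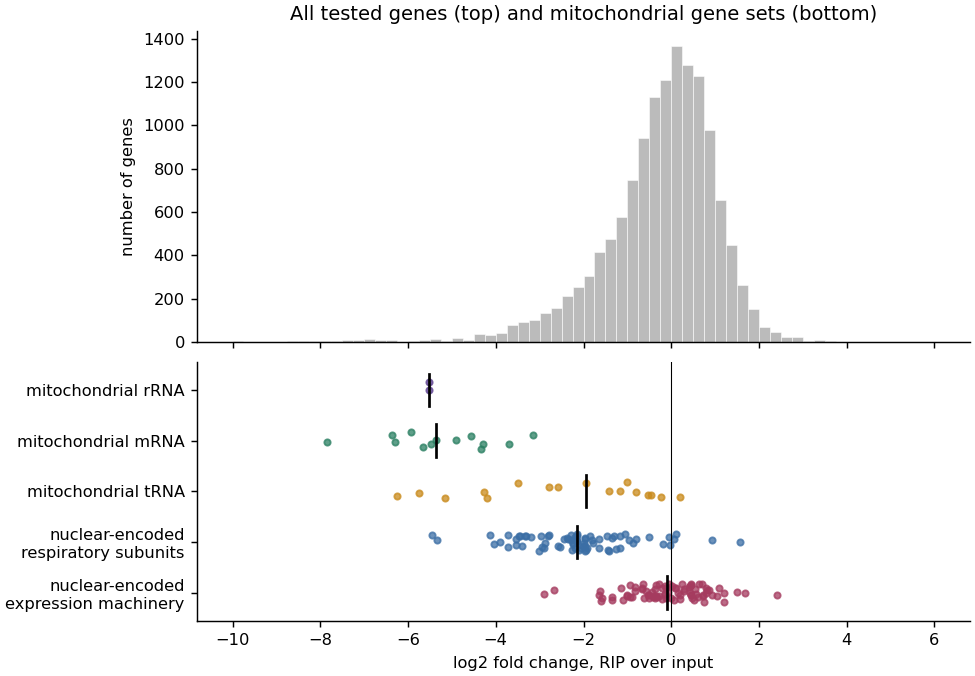
Log2 fold changes of RIP over Input for all 13632 tested genes as a histogram (top, bins of 0.25) and for each tested gene of the mitochondrial classes and of the 2 nuclear lists (bottom), where black bars are medians and the vertical spread of points has no meaning. Histogram values of 14 genes below -10 or above 6 are not drawn. The medians lie at -5.52 for rRNA, -5.37 for mRNA, -1.95 for tRNA, -2.15 for nuclear-encoded subunits and -0.09 for the expression machinery.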

How the data were processed

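RNA of 2 Input and 2 anti-YTHDF2 RIP libraries was measured. The authors deposited whole-number counts per gene, not normalized, and FPKM values, scaled by the authors for gene length and library size by a method not given in the sources used here. The submitters' processing notes name STAR 2.5, HTSeq and GRCm38 without settings for strand or for reads with several matches. The labels of the samples gave groups and replicate numbers. Counts were tested in R 4.3.3 with edgeR 4.0.16 (filterByExpr, minimum count 10, minimum total 15, TMM factors of 0.845 and 0.948 in Input and 1.29 and 0.966 in RIP, glmQLFit and glmQLFTest, Benjamini-Hochberg adjustment). A standard error was taken as the log2 fold change divided by the root of its F statistic. Depth was between 19530226 and 39499994 counts, and replicates limited precision more than counting did, except for tRNA. Intervals and floors cover counting error only.

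Alternatives were DESeq2 1.42.0, other scalings and filters, a replicate block, limma 3.58.1 on FPKM values (log2 after adding 0.1 or 1, mean FPKM of 0.1 or higher), and each library left out. Positions, types and transcript sequences were read from GENCODE M21 (GRCm38), where 52403 of 52550 identifiers were found. Nuclear copies were found with blastn 2.17.0 (identity at least 80%) among annotated transcripts, and a copy was summed with its mitochondrial gene where it was at least 99% identical over 90% of its length. The main edgeR fit, the replicate block, DESeq2 and limma were run on simulated counts, which for limma were scaled to library size without gene length. The other alternatives were not tested on simulated data.

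By the design text, each replicate has an input and an IP library, and equal numbers were taken as 1 shared replicate. The main fit did not use this pairing, which entered only the replicate block and the ratios within replicates. The difference between inputs and that between RIP libraries, replicate 2 minus 1, had a Pearson r of -0.0282 across 13632 genes and of -0.0522 across the 6858 that had 50 or more counts in each library.

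The members, the gene lists and the tests were chosen with earlier results of these data known. The text names every mRNA and rRNA gene. It names tRNA genes that had the 5 highest mean input counts, the 3 highest or 3 lowest log2 fold changes, or no test. Of each nuclear list it names the 3 genes with the highest input CPM, the 3 with the lowest log2 fold change and those called higher, and of the nuclear copies the 3 with most counts. Outside this rule, mt-Tp, mt-Te and mt-Tk are named because of their values.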

Additional observations from a re-analysis of the deposited data

How the results depend on the processing

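The calls on mitochondrial mRNA and rRNA held under DESeq2, other scalings, other filters, limma on FPKM values and the replicate block, and no mitochondrial gene with a call changed its sign. With a library left out, the number of mitochondrial genes called lower ran from 14 to 24 in place of 23, that of nuclear-encoded respiratory subunits from 2 to 68 in place of 56, and that of expression machinery genes from 0 to 8 in place of 3; the low ends came without a RIP library, where the lone pulldown is assumed to vary like the inputs. The share of all tested genes called in these fits was not counted. These numbers therefore cannot separate a change in the gene sets from a change in calling over all genes. Without RIP replicate 1 or 2, the median log2 fold change of the mRNAs was -5.33 and -5.32, against -5.37. That of Cox6b1 was -3.61 and -3.62, against -3.72, and that of Slirp -2.74 and -2.94, against -2.91. At a log2 fold change of -1 or lower and an unadjusted p below 0.05, 6 machinery genes and again 23 mitochondrial genes were lower (17.2% of all tested genes). Of the single mitochondrial calls, mt-Tw was lost with TMM factors from a table without mitochondrial, abundant rRNA and small noncoding genes (adjusted p = 0.0508) and without a filter (adjusted p = 0.0710). With a library left out, mt-Nd4l, mt-Nd6 and every called tRNA but mt-Tl1 lost the call at least once. These losses came without a RIP library, and for mt-Tw also without Input replicate 2. A call was gained by mt-Te without Input replicate 1 (log2 fold change -2.70). The median of the tRNAs, -1.95, was -1.04 without a filter, -0.89 with at least 10 counts in every library (3 genes), -0.72 on log2(FPKM + 1), and from -2.70 to -1.05 with a library left out; that of the mRNAs ran from -5.88 to -4.56. The log2 ratio of the mitochondrial share, -5.11, was -3.65 over protein-coding plus mitochondrial counts and -3.37 without AY036118 and CT010467.1. Scaling by library size alone moved the median of all tested genes from -0.05 to 0.27, and that of the mRNAs to -5.07.

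With the replicate block, 23 mitochondrial genes, 58 respiratory subunits and 3 machinery genes were called lower, the median of the mRNAs was -5.22 and that of the tRNAs -1.59, and it changed no call of a mitochondrial gene. Over all tested genes, 1602 were lower and 721 higher under the block, against 1333 and 474. On log2(FPKM + 1), which shrinks low levels, Ndufb4 was at -2.77, Slirp at -1.15, Ssbp1 at -1.08, Lrpprc at 0.77 and Nsun4 at 0.39. The causes of the other shifts were not tested. The 9 tRNA genes tested without a call had 4 to 64 counts in an input; mt-Tk, with 32 and 64, was called lower.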
